A study of Mus musculus with 26 samples.

Results

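The genes that add, copy and remove methyl groups on DNA were measured in single blastomeres of mouse 8-cell embryos, in RNA and DNA from the same cell. The set held 10 of the 55487 genes in the gene table: Dnmt1, Uhrf1, Dnmt3a, Dnmt3b, Dnmt3l, Tet1, Tet2, Tet3, Tdg and Dppa3. They were chosen by name for their known roles and matched to gene identifiers. The rule used no measured value, but earlier results of these data were known when it was set. Values were available for 9 cells, 3 of embryo 1 (cells 1, 6 and 7) and 6 of embryo 2 (cells 2, 3, 5, 6, 7 and 8). The remaining 4 of the 13 cells in the labels were not analysed here. The embryos came from C57BL/6 oocytes and sperm joined by in vitro fertilization, carried no engineered allele, received no treatment and were taken apart at the 8-cell stage, each blastomere being picked by mouth pipette. The RNA read was the part of each lysate left in solution after genomic DNA had been trapped on beads, so the values describe that RNA and not a whole-cell content. An embryo is 1 biological replicate and the comparison is 1 embryo against 1 embryo, so differences are given beside the spread between cells, with no test.

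DNA methylation in mammals is the addition of a methyl group to cytosine, mostly where cytosine precedes guanine (CpG). De novo methyltransferases set the mark, a maintenance enzyme copies it onto the new strand after each round of replication, and TET enzymes oxidize it so that it can be diluted or cut out by base excision. In the mouse, most methylation inherited from the gametes is lost between fertilization and the blastocyst stage, while imprinted regions keep theirs.

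The cells differ in more than the embryo. The study classes embryo 1 cells as G1 or G2/M phase and embryo 2 cells as S phase, and the replication score (percent of called 40-kb bins in the replicated state) was 0.00385 to 3.54% in embryo 1 and 62.4 to 80.5% in embryo 2, so embryo and cell cycle phase cannot be told apart here. The sample titles close in a number from 11 to 17 for 3 of the cells (embryo 1 cell 1, embryo 2 cells 2 and 3) and from 20 to 25 for the other 6. The study's sample list gives the first range as scRR3 and the second as scRR1, versions of the method with 3 and 1 µl of lysis buffer. Both ranges hold cells of both embryos. In embryo cells, the study reports scRR1 coverage biased to the 3′ end and fewer transcripts detected than with scRR3. How far that bias enters the transcript shares below was not tested. Cells numbered 11 to 17 had 12411 to 13319 genes above 1 TPM and the others 11058 to 11960. Mitochondrial genes took 4.28 to 6.77% of TPM in embryo 1 and 5.98 to 18.2% in embryo 2. Within embryo 2, cells 2 and 3, numbered 11 to 17, read 6.82 and 5.98%, and the cells numbered 20 to 25 read 9.31 to 18.2%. Embryo 1 cells 6 and 7, also numbered 20 to 25, read 6.77 and 4.28%. All 8 blastomere markers examined were expressed, among them the pluripotency factor Pou5f1 at 197 ± 70.7 TPM (SD, n = 9 cells). Of 10 cumulus or granulosa markers, 6 were listed at 0 in every cell, and the 10 summed to at most 6.13 TPM in a cell. Of 6 sperm markers, 4 were listed at 0 in every cell and the 6 summed to at most 1.62 TPM. The unit, TPM, is a length-corrected share of a cell's transcripts. It scales each cell to the same total, so levels can be compared between genes, but it does not keep the depth, and a 0 can be a failed estimate.

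Because Dnmt1 is read from different starts in oocytes and in somatic cells, the 250 bases before each of these starts are shown, as RefSeq gives them on GRCm38.p6. The first lies at chr9:20959889-20960138 and ends where the oocyte-type transcript Dnmt1-202 begins, and the second lies at chr9:20952980-20953229 and ends where the somatic transcript Dnmt1-201 begins. Both are on the minus strand, written 5′ to 3′, and CpG dinucleotides are in capitals.
Dnmt1 oocyte-type start: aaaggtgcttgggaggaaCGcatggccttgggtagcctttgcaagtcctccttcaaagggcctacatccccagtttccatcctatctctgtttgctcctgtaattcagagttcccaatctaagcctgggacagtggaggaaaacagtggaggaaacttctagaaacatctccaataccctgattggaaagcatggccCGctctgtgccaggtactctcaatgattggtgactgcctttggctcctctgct
Dnmt1 somatic start: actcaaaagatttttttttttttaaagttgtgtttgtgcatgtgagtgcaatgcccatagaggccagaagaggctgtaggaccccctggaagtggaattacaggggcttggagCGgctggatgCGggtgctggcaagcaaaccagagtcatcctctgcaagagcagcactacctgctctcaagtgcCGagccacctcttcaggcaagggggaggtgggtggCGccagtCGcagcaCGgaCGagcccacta
The oocyte-type start had 2 CpG and the somatic start 7. Over the 32851 promoters in the RefSeq table, the median of the same window was 6 CpG, 92.1% held at least 1, and 18.8% and 53.7% held fewer than these 2 Dnmt1 windows. A further RefSeq start of Dnmt1, at 20952623 and just past the end of the somatic first exon, had 26 CpG in its window, and 90.4% of promoters held fewer. RefSeq gave windows for 9 members and 16 starts in all. The 3 Dnmt3l windows had 3 to 5 CpG, whereas the single Tet2 window had 51 and the 2 windows at the long Dnmt3a starts had 38 and 40. CpG content is a description of the reference sequence, and methylation itself was not measured in these files.

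Across the 9 cells the members spanned 3 orders of magnitude in level (the plot of TPM by gene and cell). Dppa3 was far above the rest at 1465 ± 331 TPM (SD, n = 9), followed by Tet1 at 75.7 ± 38.1, Tet2 at 55.7 ± 27.4, Dnmt3a at 45.2 ± 26.9 and Dnmt3l at 31.3 ± 14.2. Dnmt3b at 20.96 ± 12.4 and Dnmt1 at 13.7 ± 7.73 came next. Uhrf1 at 3.91 ± 2.36, Tet3 at 2.64 ± 1.58 and Tdg at 1.15 ± 1.64 closed the order. Among neighbours in this order, only the gap between Dppa3 and Tet1 was kept in 9 of 9 cells, with a mean log2 difference of 4.38 ± 0.83. Tet1 was above Tet2 in 6 of 9 cells, Tet2 above Dnmt3a in 5 and Dnmt3a above Dnmt3l in 7, and each of these mean differences (0.54, 0.31 and 0.39 log2) was smaller than its SD between cells, so these neighbours do not differ beyond their spread. Dnmt1 was above Uhrf1 in 8 of 9 cells (1.51 ± 1.34 log2). Detection above 1 TPM covered 9.11 ± 0.78 of the 10 members per cell, and the shortfalls were in Tet3 (7 of 9 cells) and Tdg (3 of 9 cells).

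**Figure D1:**
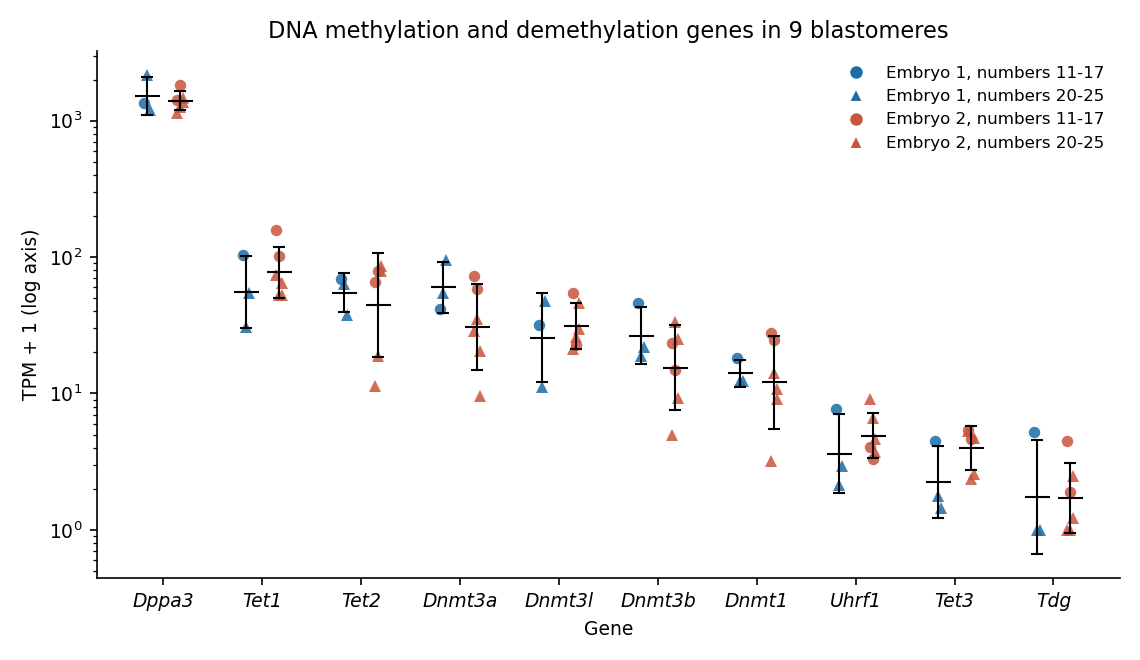
TPM + 1 of each of the 10 genes (log axis) in each blastomere, blue for embryo 1 and red for embryo 2, circles for cells numbered 11 to 17 and triangles for 20 to 25; black bars are the mean and SD of log2(TPM + 1) per embryo, drawn on the TPM scale. The embryos overlap in every gene, Dppa3 lies between 1138 and 2169 TPM, and the circles lie above the triangles in Dnmt1 and Tet1.

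Dppa3 (Stella, PGC7) is a maternal factor that shields methylated DNA in the early embryo from TET3 and can keep UHRF1 off chromatin. Its gene lies at chr6:122626410-122630272 on the plus strand (mm10). It read 1339, 2169 and 1201 TPM in embryo 1 cells 1, 6 and 7, and from 1138 to 1836 with a median of 1391 in embryo 2. In every cell it was above 98.7% of the nuclear genes detected in that cell. Its coefficient of variation, 22.6%, was the lowest of the 10 members, the others running from 45.6% for Dnmt3l to 143% for Tdg. Transcript Dppa3-201, which codes for 150 residues, took 99.4 ± 1.496% of its TPM.

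Dnmt1 copies methylation after replication, and Uhrf1 recruits it to half-methylated CpG. Dnmt1 (chr9:20907209-20959888, minus strand) read 17.2, 11.4 and 11.3 TPM in the 3 cells of embryo 1. Its embryo 2 values ran from 2.2 to 26.9 TPM with a median of 11.4, the 2 highest values being those of cells 2 and 3. Uhrf1 (chr17:56303321-56323486, plus strand) read 6.66, 1.13 and 1.93 TPM in embryo 1 and from 2.33 to 8.14 with a median of 3.34 in embryo 2. Uhrf1 was highest in embryo 2 cell 6, the cell in which Dnmt1 was lowest, and there the ratio of Dnmt1 to Uhrf1 TPM was 0.27. In the other 8 cells that ratio was 2.35 to 10.2.

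The oocyte-type Dnmt1 transcripts, which skip the somatic first exon and begin translation in exon 4, were present in 8 of 9 cells. Dnmt1-202, whose own first exon of 156 bases starts 6.91 kb before the somatic one, read 13.2, 4.72 and 2.16 TPM in the cells of embryo 1. Its values in embryo 2 cells 2, 3, 5, 6, 7 and 8 were 4.65, 11.3, 3.85, 1.79, 0 and 7.15 TPM. It codes for 1501 residues, against 1620 for the somatic Dnmt1-201. Dnmt1-201 was listed at 0 in all 3 cells of embryo 1 and in 3 of the 6 of embryo 2, and read 10.3, 8.29 and 12.2 TPM in embryo 2 cells 2, 3 and 7. Dnmt1-202 alone made up 45.6 ± 30.9% of Dnmt1 TPM. The oocyte-type class also counts Dnmt1-203 and Dnmt1-207, which begin at or near the further start just past the somatic first exon. Dnmt1-203 read 1.09 TPM in 1 cell and Dnmt1-207 was listed at 0 in every cell. By TPM, oocyte-type transcripts made up 46.0 ± 30.5% of Dnmt1 (SD, n = 9), with 45.7 ± 29.0% in embryo 1 and 46.2 ± 33.9% in embryo 2. Somatic Dnmt1-201 made up 18.4 ± 32.1%, and the rest lay in transcripts annotated with no coding region, such as the retained-intron Dnmt1-204 at the 3′ end of the gene, which reached 80.9% in embryo 1 cell 7. Among transcripts with a complete coding region alone, the oocyte type made up 77.1% on average. Dnmt1-201 and Dnmt1-202 share 37 of their 39 exons and differ in 275 and 156 bases, so the split between them rests on reads over those bases, and single-cell shares of 0 or 100% say no more than that.

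Dnmt3a and Dnmt3b are the de novo methyltransferases, and Dnmt3l is their partner without catalytic activity, best known from oocytes and germ cells. Dnmt3a (chr12:3806007-3914443, plus strand) read 40.3, 53.9 and 94.4 TPM in embryo 1 and from 8.66 to 71.2 with a median of 30.8 in embryo 2. Dnmt3b (chr2:153649450-153687730, plus strand) read 44.9, 17.8 and 20.7 TPM in embryo 1 and from 3.99 to 32.6 with a median of 18.2 in embryo 2. Dnmt3l (chr10:78041947-78063622, plus strand) read 30.8, 10.1 and 46.7 TPM in embryo 1 and from 20.3 to 53.5 with a median of 26.9 in embryo 2. Dnmt3a and Dnmt3b together exceeded Dnmt1 in 9 of 9 cells, by 1.74 to 14.4 times. Embryo 2 cell 5 had the lowest Dnmt3a and embryo 2 cell 6 the lowest Dnmt3b.

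Much of the Dnmt3a value sat in a short annotation. Dnmt3a-210, a 501-base entry with an incomplete 5′ end near the 3′ end of the gene, took 49.1 ± 19.06% of Dnmt3a TPM (22.02 to 85.05%), but 9.11 ± 7.78% of TPM multiplied by transcript length, a measure closer to the share of reads. Long Dnmt3a (908 residues) read 10.9 ± 4.92 TPM and was above 0 in 9 of 9 cells, and short Dnmt3a2 (689 residues), which starts 84.6 kb further into the gene, read 3.90 ± 3.48 TPM and was above 0 in 8. Of the TPM in complete coding transcripts, the long form held 75.3% on average and the short form 24.7%. Dnmt3a2 was highest in embryo 2 cell 7, with 11.6 TPM.

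Dnmt3b TPM lay wholly in transcripts with a complete coding region, of 5 protein lengths, and cells differed in which length led. The 859-residue class took 37.8 ± 44.7% of Dnmt3b TPM, the 839-residue class 27.6 ± 42.3%, and the classes of 776, 860 and 796 residues 14.5, 13.2 and 6.96%. The 776-residue class was above 0 in the 3 cells of embryo 1 and listed at 0 in the 6 of embryo 2, with 20.7 TPM in embryo 1 cell 7 as its highest value. These transcripts share most of their exons, and how far the estimates separate them in single cells was not tested.

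Dnmt3l was read almost wholly from a start within the gene. Transcripts Dnmt3l-203 and Dnmt3l-206, both starting at position 78055335 and coding for 126 residues, were the bulk of a short class that held 94.4 ± 11.2% of Dnmt3l TPM and read 29.8 ± 15.02 TPM. The full-length class of 421 residues was above 0 in 2 of 9 cells, through Dnmt3l-208 at 3.32 TPM in embryo 1 cell 1 and 4.35 TPM in embryo 2 cell 6. Dnmt3l-208 has 926 bases that are not in Dnmt3l-203.

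Tet1, Tet2 and Tet3 oxidize 5-methylcytosine, and Tdg removes some of the oxidized bases as the first step of repair. Tet1 (chr10:62804570-62908996, minus strand) read 102, 29.7 and 53.7 TPM in embryo 1 and from 51.7 to 156 with a median of 68.1 in embryo 2. Its 3 highest values were those of embryo 2 cell 2, embryo 1 cell 1 and embryo 2 cell 3. Tet2 (chr3:133463679-133545139, minus strand) read 67.9, 62.5 and 36.4 TPM in embryo 1 and from 10.3 to 85.4 with a median of 71.0 in embryo 2, where cells 6 and 7 (10.3 and 18.0 TPM) stood below the other 4. Tet3 (chr6:83362373-83459084, minus strand), the TET enzyme of the zygote, read 3.5, 0.77 and 0.44 TPM in embryo 1 and from 1.38 to 4.4 with a median of 3.69 in embryo 2. Tet1 was 13.96 to 122 times Tet3 in the same cell. The highest ratio was that of embryo 1 cell 7, where Tet3, at 0.44 TPM, was under the detection threshold of 1 TPM. Tdg (chr10:82629828-82650799, plus strand) read 4.25 TPM in embryo 1 cell 1 and was listed at 0 in embryo 1 cells 6 and 7, and in embryo 2 it ran from 0 to 3.51 with a median of 0.56. Tdg was listed at 0 in 4 of 9 cells, all of them numbered 20 to 25.

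For Tet1, too, the gene value was mostly a short entry. Tet1-208, of 463 bases with an incomplete 3′ end, begins 9.88 kb before the full-length Tet1-206, and 202 of its bases are not in Tet1-206. It read 52.0 ± 25.8 TPM and took 68.1 ± 14.7% of Tet1 TPM, but 13.1 ± 9.05% of TPM multiplied by length. The complete coding transcripts, Tet1-206 (2039 residues) and Tet1-201 (2007 residues), read 13.1 ± 6.81 TPM together, and Tet1-206 was above 0 in 9 of 9 cells. For Tet2 the complete coding transcripts Tet2-201 and Tet2-204 held 60.8 ± 19.8% of TPM, and the retained-intron entry Tet2-210 held 22.7 ± 22.7%, with 73.6% in embryo 2 cell 8. Tet3 was mostly Tet3-202 (1668 residues) among complete coding transcripts, at 0.76 ± 0.48 TPM, while the longer Tet3-203 (1803 residues) read 0.12 ± 0.22 TPM and was above 0 in 3 cells.

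**Figure D2:**
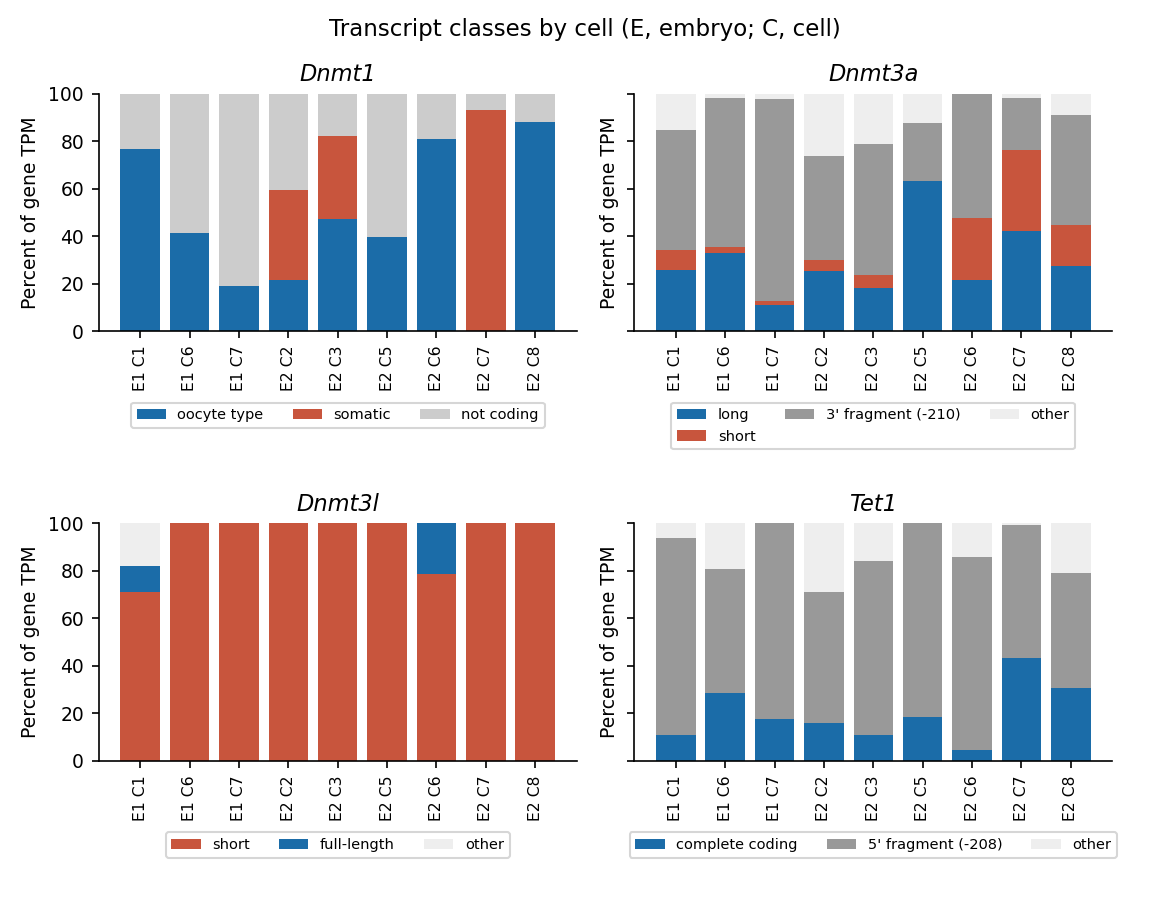
Percent of a gene's TPM in each transcript class (0 to 100) for Dnmt1, Dnmt3a, Dnmt3l and Tet1, 1 bar per cell. Somatic Dnmt1 appears in embryo 2 cells 2, 3 and 7, the Dnmt3a 3′ entry holds 22.02 to 85.05%, short Dnmt3l fills 71.2 to 100% of each bar and the Tet1 5′ entry 48.4 to 82.7%.

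The order of the genes changed when transcripts with a complete coding region alone were summed (the plot of both levels). Dppa3 stayed first at 1457 ± 337 TPM, then came Tet2 at 32.5 ± 18.5, Dnmt3l at 30.6 ± 14.4 and Dnmt3b at 20.96 ± 12.4. Dnmt3a at 14.8 ± 6.35 and Tet1 at 13.1 ± 6.81 moved to the fifth and the sixth place. Tet2 was above Tet1 in 3 of 9 cells by gene TPM and in 8 of 9 by complete coding TPM. Dnmt3a was above Dnmt3b in 7 of 9 cells by gene TPM and in 2 of 9 by complete coding TPM. Dnmt1 at 8.96 ± 6.48 TPM was still above Uhrf1, and Tet3 at 0.87 ± 0.39 TPM fell to the last place.

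**Figure D3:**
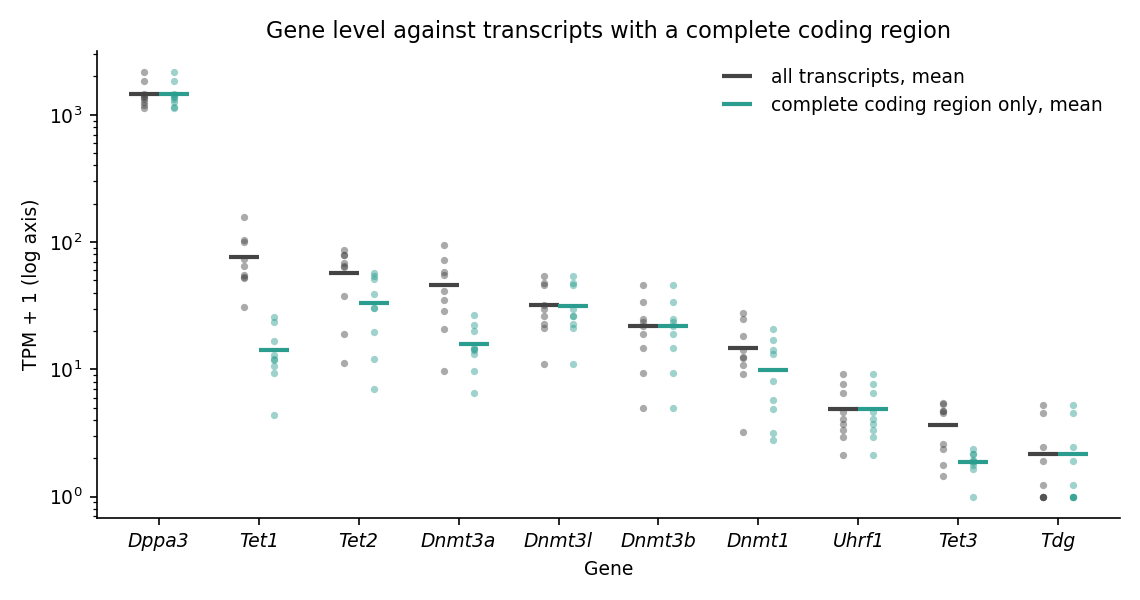
TPM + 1 (log axis) of each gene in the 9 cells (dots) with the mean of TPM plus 1 (bar), over all transcripts (grey) and over transcripts with a complete coding region (green). Tet1 falls from a mean of 75.7 to 13.1 TPM and Dnmt3a from 45.2 to 14.8, while Dnmt3b and Uhrf1 keep their values.

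The first comparison asked whether the set differed between the embryo in S phase and the embryo outside it. It did not separate them. On the log2(TPM + 1) scale, which understates the change of low genes, 4 members were higher and 6 lower in embryo 2 in the mean, and the cells of both embryos overlapped in 10 of 10 members. The median difference, embryo 2 minus embryo 1, was -0.07 over the members and -0.04 over the 13612 nuclear genes with mean TPM above 1. A gene was counted as past the threshold when the means differed by more than 2-fold and the cells of the embryos did not overlap. None of the 10 members was, while 0.558% of the 13612 genes were past it above embryo 1 and 1.87% below. Against shares this small, 0 of 10 by the non-overlap rule is not a result about the members. By the 2-fold difference alone, again none of the members but 18.3% of genes were past. That count depends on the pseudocount of 1. With a pseudocount of 0.1, Tet3 was past 2-fold, at 1.33, with overlap between the embryos. The share of all genes in that setting was not computed, so this count, too, is not a result about the members.

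Dnmt3a and Tet3 had the differences largest against their spread. Dnmt3a was lower in embryo 2 by 0.97 log2 (62.9 ± 28.2 TPM in 3 cells against 36.4 ± 23.6 in 6), with a pooled SD between cells of 0.95. Within the cells numbered 20 to 25 the difference was -1.78, with all 4 embryo 2 cells below both embryo 1 cells, and within 11 to 17 it was 0.65, with both embryo 2 cells above the 1 embryo 1 cell. By complete coding TPM the Dnmt3a difference was -0.16, and the embryos overlapped within both ranges. Tet3 was higher in embryo 2 by 0.82 log2 (1.57 ± 1.68 against 3.18 ± 1.35 TPM), with a pooled SD of 0.65. It was higher within both ranges, by 0.16 and 1.14. By complete coding TPM the Tet3 difference was 0.41. In embryo 1 cells 6 and 7, Tet3 read 0.77 and 0.44 TPM, under the detection threshold of 1 TPM. Without embryo 1 cell 1, which leaves 2 cells against 6, Tet3 was past 2-fold with no overlap, at 1.31. No member was past it with any other single cell left out. The share of all genes past it in that setting was not computed. Within a range, the rule of 2-fold without overlap was met by more genes. Within numbers 11 to 17, with 1 cell against 2, it was met by 16% of genes below embryo 1 and 8.63% above, and by 2 of 10 members, Uhrf1 and Dnmt3b, both below. Within 20 to 25, with 2 cells against 4, it was met by 5.64% of genes below and 3.86% above, and by Dnmt3a below and Uhrf1 and Tet3 above. Embryos without overlap in both ranges, but in opposite directions, were found in 2 of 10 members, Uhrf1 and Dnmt3a, and in 3.54% of genes. The same for number ranges within the embryos was found in Dnmt3a and in 2.48% of genes. Over all 9 cells, Dnmt3b at -0.78, Uhrf1 at 0.44, Tet1 at 0.47, Tet2 at -0.30, Dnmt3l at 0.29, Dnmt1 at -0.22, Dppa3 at -0.12 and Tdg at -0.01 all moved by less than their pooled SD. The summed TPM of the 10 genes was 1826 ± 469 in embryo 1 and 1660 ± 298 in embryo 2. Without Dppa3 it was 257 ± 65.5 and 247 ± 93.2.

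The members differed more with the number in the sample title than with the embryo. All 10 were higher in the mean in the 3 cells numbered 11 to 17 than in the 6 numbered 20 to 25, where 65.9% of the 13612 genes were. The median difference was 0.82 log2 over the members and 0.29 over all those genes, and 8 of 10 members lay above the latter. With each cell centred on its own median, Dppa3 and Uhrf1 turned to the other direction (-0.11 and -0.10) and 8 members stayed higher. Past 2-fold with no overlap were 2 of 10 members, Dnmt1 and Tet1, where 3.54% of genes were past it in that direction and 0.779% in the other. Dnmt1 read 17.2 to 26.9 TPM in the lower numbers and 2.2 to 13.1 in the higher, a difference of 1.31 log2 with a pooled SD of 0.69. Tet1 read 99.9 to 156 and 29.7 to 72.4 TPM, a difference of 1.15 with a pooled SD of 0.41, which centring brought to 0.93, under 2-fold. Both were higher within each embryo, Dnmt1 by 0.55 and 1.69 and Tet1 by 1.33 and 1.06. Tdg had the largest mean difference, 1.56, but its values of 0.89 to 4.25 and 0 to 1.47 TPM overlapped. Over complete coding transcripts, Dnmt1 (13.2 to 19.6 against 1.79 to 12.2 TPM) and Tet2 (49.9 to 56.5 against 5.98 to 38.2 TPM) did not overlap, and Tet1 did. The share of all genes without overlap on this scale was not computed. Dppa3 moved by 0.11 and Uhrf1 by 0.12, both less than their pooled SD. The number of genes detected moved the same way, at 12903 ± 459 against 11469 ± 416, and its part in these differences was not tested.

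**Figure D4:**
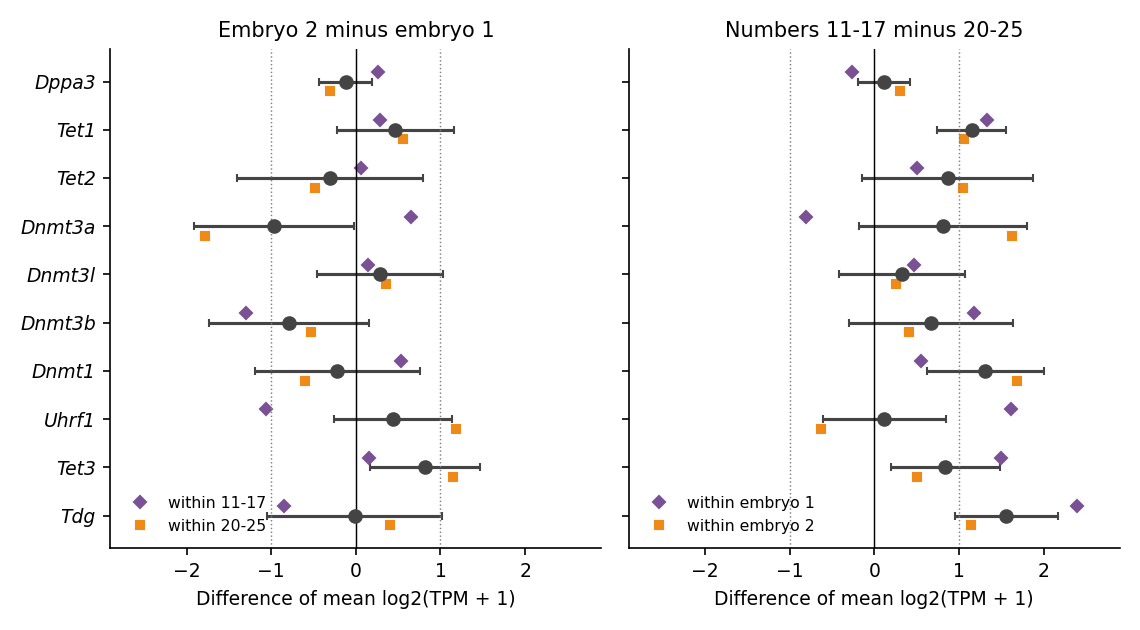
Difference of mean log2(TPM + 1) for each gene, embryo 2 minus embryo 1 (left) and cells numbered 11 to 17 minus 20 to 25 (right); black points carry the pooled SD between cells, coloured points are the same difference within each range or embryo, and dotted lines mark 2-fold. The points lie on both sides of 0 on the left, from -0.97 to 0.82, and above 0 for all 10 genes on the right, from 0.11 to 1.56, where Dppa3 and Uhrf1 change direction when cells are centred.

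The DNA of the same cells gave the replication state of 5 of the members, those on chromosomes with bins in the state table: Dnmt1, Uhrf1, Dnmt3a, Dnmt3b and Tet2. The state of a gene is the sign of the mean over the 40-kb bins it overlaps, 2 or 3 bins here, and no gene had mixed bins. In embryo 1 all 5 carried the unreplicated call in all 3 cells. A cell before replication and a cell after it both carry the same number of copies all along the genome, so in cells classed as G1 or G2/M this call does not show that a gene had yet to be replicated. In embryo 2, Dnmt1, Uhrf1, Dnmt3a and Tet2 were replicated in 6 of 6 cells and Dnmt3b in 5 of 6, or 29 of 30 gene and cell pairs. In those 6 cells, 73.7 to 90.9% of genes with a state were replicated, and 81.8 to 97.6% of those with mean TPM above 1. Replicated in all 6 cells were 4 of the 5 members, beside 72.7% of the 11514 expressed genes with a bin. The exception, Dnmt3b in embryo 2 cell 6, was in the cell with the lowest replication score of that embryo, 62.4%. Dnmt3b was lowest in that cell, at 3.99 TPM, as were Dppa3, Dnmt1 and Tet2, the last 2 of which were replicated there.

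Around the genes, the unreplicated bins of embryo 2 stood at different distances. Within 1 Mb of the start of Dnmt1, no bin was unreplicated in any of the 6 cells, over the 37 bins present. Near Dnmt3a, with 45 bins, 1 cell had unreplicated bins, the nearest 960 kb away. Near Uhrf1 and Tet2, 5 of 6 cells had them, the nearest 480 and 320 kb from the start, and up to 8 and 18 of 51 bins. Near Dnmt3b, embryo 2 cell 6 alone had them, 21 of 51 bins including that of the start.

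**Figure D5:**
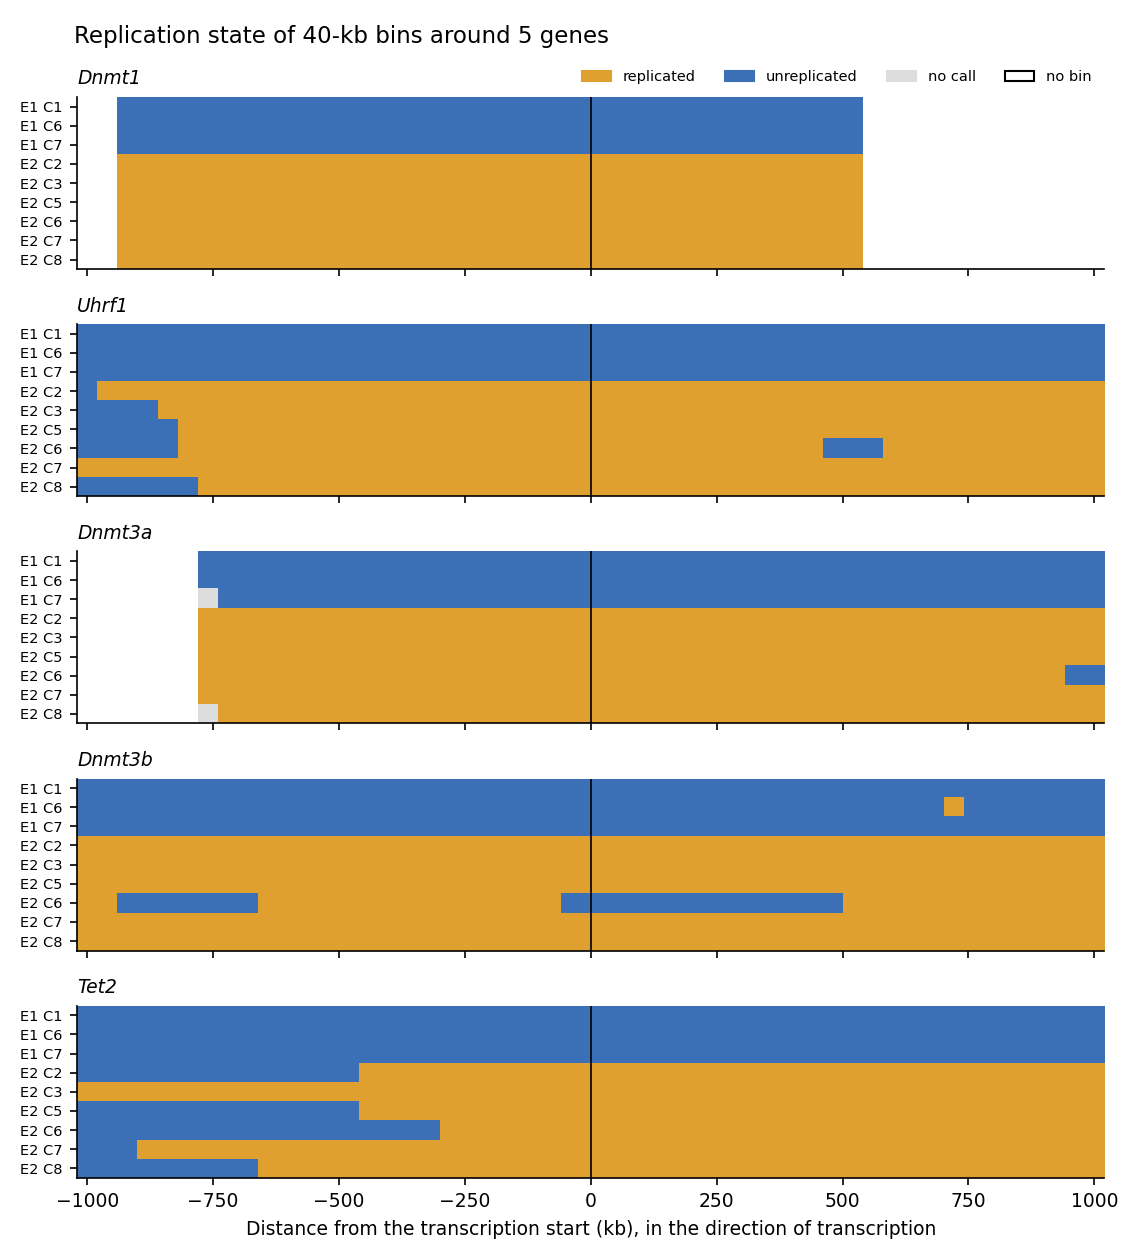
State of each 40-kb bin within 1000 kb of the transcription start (x axis, kb, in the direction of transcription) for 5 genes, 1 row per cell; orange is the replicated call, blue the unreplicated call, grey no call and white no bin. The starts are orange in the rows of embryo 2, other than Dnmt3b in cell 6, and blue in those of embryo 1, where the call cannot tell G1 from G2/M.

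Between members, the values over the 9 cells are described by Pearson correlations of log2(TPM + 1), whose points share library, number range and scaling. Tet1 ran most closely with Tdg (r = 0.73) and Tet3 (r = 0.72), and within the 6 cells numbered 20 to 25 the values were 0.06 and 0.54. Dnmt1 and Dnmt3b had r = 0.66 over all cells and 0.82 within those 6. Uhrf1 ran opposite to Dppa3 (r = -0.71, and -0.74 within those 6) and to Tet2 (-0.56 and -0.73). Dnmt1 and its partner Uhrf1 had r = -0.39, and -0.64 within those 6. Among the 6733 nuclear genes with mean TPM of at least 10, those most like Dppa3 over the 9 cells were Dcaf1 (r = 0.92) and Snord65 (0.91). The one most like Tet1 was Drc1 (0.94), and those most like Tet2 were Ccdc6 (0.92) and Txndc15 (0.91). Above 0.9 were 2 genes for Dppa3, 16 for Tet1 and 3 for Tet2. These are the highest of 6733 values over 9 cells, so selection alone can give values this high, and no relation was tested.

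Genes that work with the members were examined as lists. None of the genes tested in the 7 lists passed the 2-fold difference without overlap between embryos, or between number ranges, against the shares given above. Maintenance cofactors were led by the replication clamp Pcna at 118 ± 36.9 TPM and the deubiquitinase Usp7 at 105 ± 35.0, with a median difference between embryos of 0.08 over the 7 of 8 tested. Among de novo and imprint cofactors, the histone H3 methyltransferases Setd2 at 345 ± 109 and Ehmt2 at 90.9 ± 42.7 TPM led, with a median of -0.05 over 8. Among readers of methylated DNA, Mbd3 at 76.9 ± 24.1 TPM stood well above Mbd1 at 6.78 ± 6.01, with a median of 0.47 over 6. Of TET partners, the O-GlcNAc transferase Ogt read 36.8 ± 14.9 and Alkbh1 10.6 ± 3.29 TPM, with a median of -0.20 over 5, and Cxxc4 was listed at 0 in every cell.

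Base excision repair was led by the scaffold Xrcc1 at 264 ± 94.2 and the endonuclease Apex1 at 183 ± 45.3 TPM, both well above Tdg, with a median difference of 0.15 over 10 genes. Not all of the list was above Tdg. Neil2 and Neil3, named after their values were seen, read 0.39 ± 0.48 and 1.29 ± 2.36 TPM, beside 1.15 ± 1.64 for Tdg. Parp1 and Ung, named after their values were seen, were lower in embryo 2 without overlap, with differences of -0.57 and -0.80 that did not reach 2-fold. The share of all genes without overlap at any fold was not computed. The methyl donor cycle was among the most abundant, with Bhmt at 758 ± 181 and the S-adenosylmethionine synthetase Mat2a at 714 ± 204 TPM, and a median of 0.00 over 8. Between the number ranges, 2 genes of these 7 lists did not overlap, both short of 2-fold. Here, too, the share of all genes was not computed, so the count is not a result about the lists. Mat2a differed by -0.75 log2, cells numbered 11 to 17 minus the others, and the maintenance cofactor Cdca7, named after its values were seen, by 0.93 (69.4 to 75.9 against 17.1 to 54.4 TPM). Germline genes known as targets of DNA methylation were led by Tex19.1 at 113 ± 28.1 and Mael at 36.3 ± 32.4 TPM. Their median difference, embryo 2 minus embryo 1, was -1.11 over 11 genes, beside -0.04 over all genes. It was -2.05 within the cells numbered 11 to 17, where it rests on 1 cell of embryo 1, and -0.47 within 20 to 25. Tex19.1 differed by -0.21, and Hormad1 and Tex101, named after their values were seen, by 0.34 and 0.13. The other genes tested were lower in embryo 2 in the mean, and the cells of the embryos overlapped in each gene.

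Near copies could take reads from the members. By alignment of member transcripts (at least 90% identity over 200 bases), Tdg had the copies Tdg-ps, Gm5597 and Gm9855, and Uhrf1 had Gm5648, and these 4 were listed at 0 in every cell. Dnmt3c, 93.3% identical to Dnmt3b over 1655 bases, read 1.14 TPM on average, and Dppa3-ps read 0.74. On the opposite strand, Dnmt3bos overlaps Dnmt3b and reached 3.29 TPM in embryo 1 cell 7, and Dnmt3aos was listed at 0. How reads were divided between such pairs was not examined here.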

How the data were processed

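RNA and DNA of single 8-cell blastomeres were separated on beads and sequenced by the authors. They set the RNA libraries to a common number of reads, processed them with ramdaq (Hisat2 alignment, RSEM estimates, mm10, GENCODE annotation) and deposited TPM values per gene and per transcript. For DNA, the reads were aligned with bwa (0.7.17-r1188 per the labels) and counted in 40-kb bins. The authors deposited a 2-state replication score per bin (1 replicated, -1 unreplicated, 0 no call). Columns were matched to cells by the number closing the sample title, since the RNA headers all carry the same embryo and cell. A further 14 columns of each of the 3 tables had no sample in the labels and were not used.

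Here, TPM was transformed as log2(TPM + 1) in Python 3.11.15 with pandas 2.3.3. Genes were named, and transcripts classed, from GENCODE M21 on GRCm38, the same build but another release than the deposited tables, which gave a name to 55141 of 55487 identifiers. A complete coding transcript is one of protein-coding type without an incomplete end. Differences are means of embryo 2 minus means of embryo 1, beside the pooled SD between cells. No test was run, because each embryo is 1 replicate. Named genes were the 10 members, the 2 highest of each list and any past 2-fold without overlap, and the 2 genes most like each of the 3 highest members. One gene that this rule names is not reported here. The members and lists were chosen with earlier results of these data known. Depth is not kept in TPM, so no counting interval is given. The steps were tested on simulated data. The alternatives were another pseudocount, rescaling without mitochondrial genes, centring each cell on its median, transcript sums, other detection thresholds, each number range alone and leaving out each cell.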

Additional observations from a re-analysis of the deposited data

Results flagged for a closer look

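For Uhrf1 and Dnmt3a, the difference between the embryos pointed opposite ways in the 2 ranges of sample numbers, with no overlap within either range, and this contrast was not tested. Of all 13612 genes, 3.54% did the same, and within numbers 11 to 17 it rests on 1 cell against 2. Uhrf1, embryo 2 minus embryo 1 on the log2 scale, was -1.06 within numbers 11 to 17 (1 cell against 2, values from 2.33 to 6.66 TPM) and 1.18 within 20 to 25 (2 cells against 4, values from 1.13 to 8.14 TPM). Dnmt3a was 0.65 within 11 to 17 (40.3 to 71.2 TPM) and -1.78 within 20 to 25 (8.66 to 94.4 TPM). Over complete coding transcripts, the embryos overlapped in Dnmt3a within both ranges. Embryo 1 read 13.75 TPM against 21.45 and 13.53 within 11 to 17, and 19.13 and 12.11 against 5.48 to 25.91 within 20 to 25. Seen the other way, by gene TPM, Dnmt3a in the cells numbered 11 to 17 differed from the others by -0.81 within embryo 1. Within embryo 2 it differed by 1.62, a pattern found in 2.48% of genes. No cell of embryo 2 stood apart from the other 5 in any of the 13 measures examined for it, where chance flags about 1 in 20. That count does not speak for every value given here. Embryo 2 cell 6 had a replication score of 62.4%, beside 74.2 to 80.5% in the other 5. Its ratio of Dnmt3a and Dnmt3b together to Dnmt1 was 14.4, beside 1.74 to 5.34.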

How the results depend on the processing

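The median difference between embryos, -0.07 log2, moved by less than the SD between cells under each alternative run, and from -0.30 to 0.20 with 1 cell left out. The count of members past 2-fold without overlap was 0. It was 2 within the cells numbered 11 to 17 (Uhrf1 and Dnmt3b), 3 within 20 to 25 (Uhrf1, Dnmt3a and Tet3), and 0 to 1 with 1 cell left out. The shares of all genes within each range stand beside these counts in the embryo comparison. With 1 cell left out, no share of all genes was computed. The difference in summed TPM was -167, became 321 within the cells numbered 11 to 17, and ran from -347 to 98.3 with 1 cell left out. Members detected per cell were 9.11, 7.11 at TPM above 5, and 9 to 9.25 with 1 cell left out. The oocyte-type share of Dnmt1 was 46.0%, 77.1% of coding transcripts only, and 40.8 to 51.8% with 1 cell left out. Of 160 single-gene differences under the alternatives, 18, in 7 genes, had the opposite sign to the value over all cells. Of these, 3 lay beyond 1 SD of that value, all within the cells numbered 11 to 17: Dnmt3a at 0.65, Uhrf1 at -1.06 and Dppa3 at 0.27. The alternatives with complete coding transcripts and with Dnmt1-202 alone were chosen after seeing the data. Taking the bin of the start left 29 of 30 loci replicated. The causes were not tested. No paired analysis was possible because cell numbers of different embryos name different cells and no test was run. With 1 embryo per phase, 9 cells and TPM without depth, low levels such as those of Tdg and Tet3 and splits between transcripts of 1 cell are the least certain values.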
